A study of Mus musculus with 16 samples.

Results

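The genes described here carry out or drive cell division, and 47 of them were named by function: 22 of DNA replication in S phase, 22 of mitosis, and the 3 D-type cyclins. They were found by gene symbol on the array. Of the 47, 45 had a probe that carries 1 symbol, and 42 were bright enough to be tested (21 of S phase, 18 of mitosis and 3 D-type cyclins), among 11332 tested genes of 19053 on the array. Ccnb1 and Mki67 matched no such probe and were not analysed here. Pola1, Cenpe and Kif20a had 1 probe each, detected on 0 of the 16 arrays, with signals of -5.1 to 6.95, -4.85 to 0.85 and -5.75 to 2.95, so they have no usable level here.

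RNA came from C57BL/6J mice at 9.5 days post coitum, embryo and yolk sac kept apart, out of crosses between carriers of a disrupted rudhira gene (Bcas3 on the array), and was read on Illumina bead arrays. The wild types (+/+) grew normally and were vascularized, while the mutants (-/-, labelled with a deletion of exon 6) were small for their age with abnormal vessels. Each genotype gave 2 embryos and 2 yolk sacs, so that 8 RNA samples made 4 groups. Each sample was read on 2 arrays, which were averaged, so n is 2 per group throughout, and p-values measure only the spread between these samples. The tail of each embryo served for genotyping, and RNA came from mixed tissue, so more or fewer cells of a type and more or less RNA per cell cannot be told apart.

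A dividing cell copies its DNA once and then separates the copies. The D-type cyclins pair with CDK4 and CDK6 in the gap before replication and inactivate the retinoblastoma protein, which releases the E2F factors. E2F then raises the genes of S phase: the licensing factors that load the MCM helicase at origins, the polymerases with their sliding clamp and clamp loader, and the enzymes that supply deoxynucleotides. Mitotic genes follow later, under a complex of B-Myb and MuvB with FoxM1 that acts through an element called CHR, often beside CCAAT boxes bound by NF-Y. Embryos at this stage grow fast, and the yolk sac is at the same time a layer of absorptive visceral endoderm over mesoderm with blood islands.

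The array data met their labels by tissue, with points to keep in mind beside the values below. Between 17382 and 19576 probes were detected per array, and mutant yolk sac arrays were the dimmest, with a 75th percentile signal of 67 to 74.8 against 97.6 to 140.7 elsewhere. The summed signal of 5 cardiac muscle genes was 15212 to 18446 in embryos and 50.45 to 103 in yolk sacs, and that of 12 visceral endoderm genes was 108370 to 161873 in yolk sacs and 528.8 to 21035 in embryos. Bcas3 itself gave a signal of 759 and 1244 in wild-type yolk sacs and 234 and 278 in mutant yolk sacs. In embryos it gave 331 and 391 in wild types and 270 in mutant 1, but 664 in the library labelled mutant embryo 2, and whether the probe lies in the deleted exon is not known here.

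The stretches of 150 bases just before the start of transcription are shown for 3 S phase and 3 mitosis genes. The 2 classes differ in how often they carry some motifs. The S phase genes shown were lower in yolk sac, and the mitosis genes shown were not called lower there in wild types. Because calls entered this choice, the stretches do not stand for their classes. The stretches run 5′ to 3′ on the strand of the gene and come from RefSeq on GRCm38.p6. In the S phase genes, capitals mark E2F-like motifs, either TTCCCGC (read GCGGGAA from the opposite strand, as in Cdc6) or, as in Mcm6, the form TTGGCGC or its variant ending in GG. In the mitosis genes, capitals mark the CHR motif TTTGAA (read TTCAAA from the opposite strand) and the box CCAAT (read ATTGG from there). Other mitosis genes with TTTGAA did fall in wild types, among them Bub1b and Top2a, and Prim1, an S phase gene with TTCCCGC, did not pass.
Mcm6, helicase subunit, chr1:128359706-128359855, minus strand: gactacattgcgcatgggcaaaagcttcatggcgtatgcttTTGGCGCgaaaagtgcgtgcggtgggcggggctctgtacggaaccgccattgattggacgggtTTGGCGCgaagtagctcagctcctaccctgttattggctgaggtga
Rrm1, ribonucleotide reductase subunit, chr7:102441545-102441694, plus strand: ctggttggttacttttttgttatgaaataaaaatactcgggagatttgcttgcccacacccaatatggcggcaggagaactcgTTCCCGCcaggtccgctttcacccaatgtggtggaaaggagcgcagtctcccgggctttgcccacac
Cdc6, origin licensing factor, chr11:98908001-98908150, plus strand: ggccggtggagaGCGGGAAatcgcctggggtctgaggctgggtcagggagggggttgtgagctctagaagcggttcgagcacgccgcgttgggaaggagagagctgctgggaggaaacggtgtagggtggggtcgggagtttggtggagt
Cdk1, mitotic kinase, chr10:69352913-69353062, minus strand: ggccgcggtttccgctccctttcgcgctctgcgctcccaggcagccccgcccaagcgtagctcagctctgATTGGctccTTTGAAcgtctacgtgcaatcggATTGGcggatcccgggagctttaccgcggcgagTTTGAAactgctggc
Ube2c, ubiquitin-conjugating enzyme of the anaphase-promoting complex, chr2:164769779-164769928, plus strand: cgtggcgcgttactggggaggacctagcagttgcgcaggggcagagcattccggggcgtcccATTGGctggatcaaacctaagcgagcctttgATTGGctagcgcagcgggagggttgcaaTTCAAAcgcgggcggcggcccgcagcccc
Kif11, spindle motor, chr19:37376232-37376381, plus strand: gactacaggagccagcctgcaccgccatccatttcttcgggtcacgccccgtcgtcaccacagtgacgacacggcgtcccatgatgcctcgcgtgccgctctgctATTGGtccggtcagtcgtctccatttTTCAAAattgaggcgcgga

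Read over the promoters of 36 members, from 250 bases before to 50 after the start and on both strands, the 2 classes carried different motifs. TTTGAA was found in 11 of 17 mitosis genes and 1 of 18 S phase genes, against 20.2% of all 27018 genes with a promoter. TTCCCGC was found in 10 of 18 S phase genes and 0 of 17 mitosis genes, against 5.29% of all. The contrast was less sharp in the lists of further genes used below. There TTTGAA was in 34 of 55 mitosis and 9 of 40 replication genes, and TTCCCGC in 8 of 55 and 12 of 40. The CCAAT box was found in 12 of 18 S phase and 14 of 17 mitosis genes (41.1% of all), and TTGGCGC in 6 of 18 and 3 of 17 (2.85%). The rarer TTCGAA was in 2 S phase and 3 mitosis genes (1.8% of all), and TTGGCGG in 2 and 1 (3.12%). A reverse CCAAT box can overlap the start of the last of these motifs, as it does in the Cdk1 stretch above. A match is a description of these windows and not a bound site.

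Most S phase genes were lower in yolk sac than in embryo. In wild types 17 of the 21 fell and 0 rose, and in mutants again 17 fell and 0 rose (limma, adjusted p under 0.05), with 16 of them the same genes. Paired values below give wild types first and mutants second. Their median log2 difference was -0.78 in wild types and -0.94 in mutants, where the median over all tested genes was -0.03 and -0.05. The counts and medians depended on the scaling. In wild types 11 S phase genes fell and 1 rose under median scaling (median -0.45), with all genes at 0.11. When signals were scaled to the 75th percentile and then floored at 16, 13 fell and 2 rose (median -0.45), with all genes at 0.09. That setting, called 75th percentile scaling below, also left out the background correction and offset of the main fit. In mutants 19 fell and 0 rose under median scaling (median -0.98) and 13 fell and 2 rose under 75th percentile scaling (median -0.53), with all genes at -0.21 and 0.10. Over all genes the tissues differed widely: 69.5% of genes were called in wild types, 36.2% lower and 33.2% higher, and 69.3% in mutants, 36.5% lower and 32.7% higher. Taking S phase genes, mitosis genes and D-type cyclins, 31 of the 42 members fell in wild types and 2 rose, and 29 fell in mutants and 3 rose.

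The 6 subunits of the MCM helicase, which unwinds DNA at the fork, fell in both genotypes, with log2 differences of -1.20 to -0.51 in wild types and -1.37 to -0.58 in mutants. Mcm3 had log2 levels of 10.62 and 10.43 in wild-type embryos, 10.60 and 10.57 in mutant embryos, 9.48 and 9.18 in wild-type yolk sacs and 9.48 and 9.38 in mutant yolk sacs. Every yolk sac lay below every embryo. The wild-type difference was -1.20 (SE 0.13, 2.29-fold lower, adjusted p = 0.000101), the largest fall among the S phase genes there. Mcm7 read 10.70 and 10.58 in wild-type embryos, 10.69 and 10.91 in mutant embryos, 9.59 and 9.92 in wild-type yolk sacs and 9.40 and 9.45 in mutant yolk sacs. It too separated the tissues in each genotype, with a difference of -0.88 (SE 0.14, adjusted p = 0.000752) in wild types and -1.37 (SE 0.14, 2.58-fold lower, adjusted p = 7.72e-05) in mutants. Mcm4, Mcm5, Mcm6 and Mcm2 differed by -0.88, -0.75, -0.78 and -0.51 in wild types. The wild-type call of Mcm2 was lost under either of the other scalings, and that of Mcm6 under median scaling. In mutants the Mcm2 call was lost under 75th percentile scaling. Before normalization Mcm2 gave 2802.05 and 2754.2 in wild-type embryos and 1939.75 and 2753.95 in wild-type yolk sacs.

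At the replication fork, 4 of 5 members fell in each genotype. Pold1, the catalytic subunit of polymerase delta, had log2 levels of 10.84 and 10.66 in wild-type embryos, 10.73 and 10.79 in mutant embryos, 9.61 and 9.67 in wild-type yolk sacs and 9.38 and 9.56 in mutant yolk sacs. Its levels left a gap of about a log2 unit between the tissues, with differences of -1.11 (SE 0.11, adjusted p = 6.31e-05) and -1.29 (SE 0.11, adjusted p = 3.43e-05). Rfc4, a subunit of the clamp loader, read 9.91 and 9.90 in wild-type embryos, 9.93 and 9.94 in mutant embryos, 8.89 and 9.34 in wild-type yolk sacs and 8.61 and 8.49 in mutant yolk sacs. The embryos were nearly level and the yolk sacs spread, and the difference was -0.79 (SE 0.15, adjusted p = 0.00188) in wild types and -1.38 (SE 0.15, 2.61-fold lower, adjusted p = 0.000104) in mutants. The wild-type call of Rfc4 was lost under median scaling. Pcna, the sliding clamp, differed by -1.01 and -1.06, and Rfc3 by -0.86 and -1.02. Prim1, which encodes the small primase subunit, did not pass, at -0.14 (adjusted p = 0.315) in wild types and -0.13 (adjusted p = 0.336) in mutants, although it fell in mutants under median scaling.

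Among the factors that license and fire origins, Cdc6, Cdt1, Mcm10 and Gins1 fell in both genotypes, with differences of -0.88 to -0.45 in wild types and -1.05 to -0.52 in mutants. The wild-type calls of Cdt1 and Mcm10 were lost under either of the other scalings. In mutants the calls of Mcm10 and Gins1 were lost under 75th percentile scaling. Gins2, another subunit of the complex that Gins1 belongs to, gave 0.20 (SE 0.11, adjusted p = 0.140) and -0.02 (adjusted p = 0.888), and did not pass, although it rose in wild types under either of the other scalings and in mutants under 75th percentile scaling. Gins2 read 10.20 and 10.12 in wild-type and 10.20 and 10.34 in mutant embryos. In yolk sacs it read 10.45 and 10.26 in wild types and 10.29 and 10.21 in mutants. Both ribonucleotide reductase subunits fell, Rrm1 with -0.83 and -0.85 and Rrm2 with -0.99 and -1.28. Tyms, thymidylate synthase, differed by -0.34 (SE 0.10, adjusted p = 0.0163) in wild types but by 0.04 (SE 0.10, adjusted p = 0.703) in mutants. In embryos Tyms read 11.28 and 11.29 in wild types and 11.16 and 11.32 in mutants. Its other 4 kept probes gave -0.63 to -0.16 in mutants, so the Tyms value there rests on the brightest probe. The wild-type call of Tyms was lost under either of the other scalings, and under 75th percentile scaling Tyms was called higher in mutants. The E-type cyclins, which start replication with CDK2, were not called in wild types here, though some other settings gave calls. Ccne1 had log2 levels of 8.63 and 8.71 in wild-type embryos, 8.79 and 8.81 in mutant embryos, 8.83 and 8.91 in wild-type yolk sacs and 8.46 and 8.56 in mutant yolk sacs. Wild-type yolk sacs thus lay above wild-type embryos, by 0.20 (SE 0.09, adjusted p = 0.0892), and mutant yolk sacs below mutant embryos, by -0.29 (SE 0.09, adjusted p = 0.0234). Ccne2 gave -0.37 (adjusted p = 0.101) and -0.28 (adjusted p = 0.204). Under 75th percentile scaling Ccne1 was called higher in wild types and its mutant call was lost. Ccne1 was also called higher in wild types with no filter on detection, and Ccne2 lower in mutants under median scaling.

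**Figure D1:**
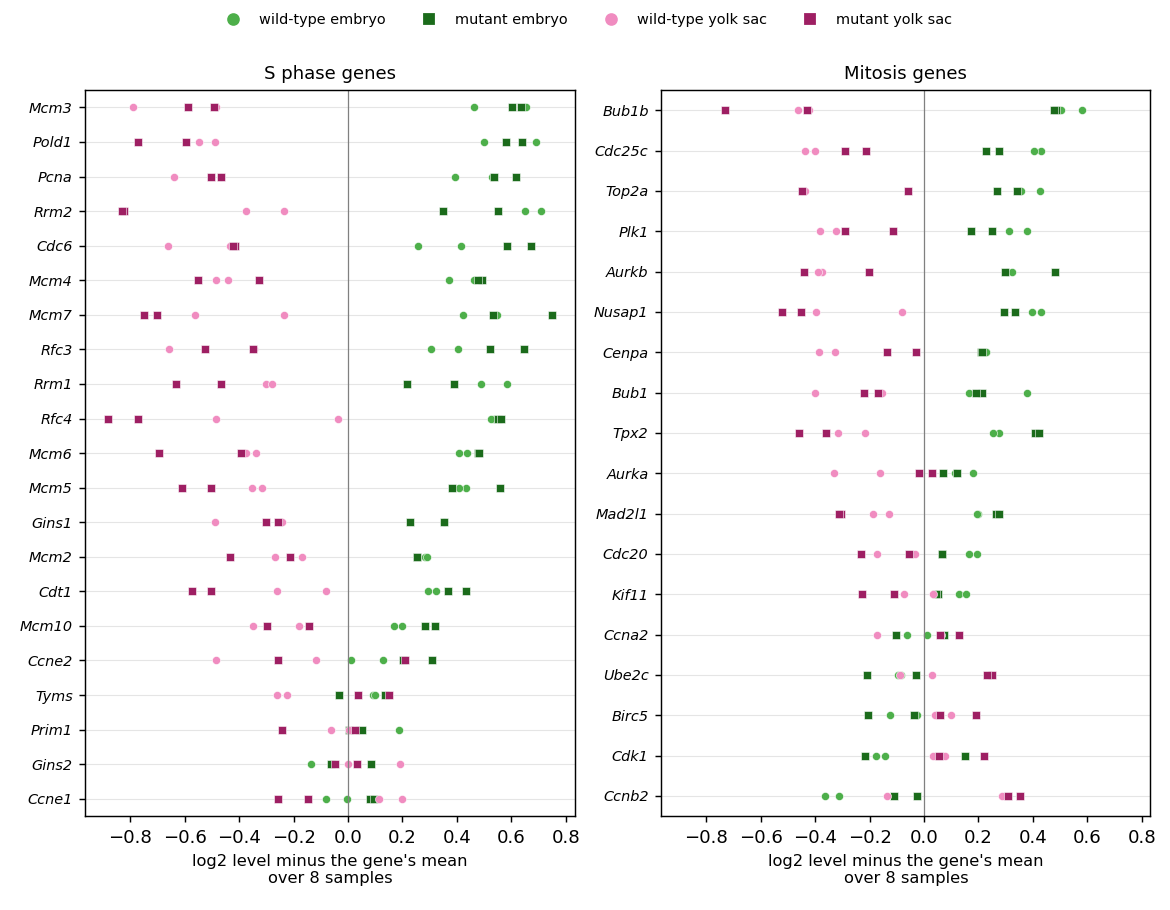
Log2 level of each tested S phase gene (left, 21 genes) and mitosis gene (right, 18 genes) in the 8 RNA samples, minus the mean of that gene over all samples, with genes ordered from the lowest to the highest yolk sac minus embryo difference in wild types. Each point is 1 sample (circles wild type, squares mutant, green embryo, pink and purple yolk sac), and most S phase genes show all yolk sacs left of all embryos, while Cdk1, Ccna2, Birc5 and Ube2c do not.

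The mitosis genes split. In wild types 12 of the 18 fell, 1 rose and 5 did not pass, and in mutants 10 fell, 2 rose and 6 did not pass, with 10 lower in both genotypes. Their median difference was -0.46 in wild types and -0.35 in mutants, and these too depended on the scaling. In wild types 4 fell and 2 rose under median scaling (median -0.19), and 8 fell and 3 rose under 75th percentile scaling (median -0.17). In mutants 9 fell and 0 rose under median scaling (median -0.37), and 6 fell and 5 rose under 75th percentile scaling, where the median was 0.07. Without these changes of scaling, the number of members in a class that fell was read beside the 36.2% and 36.5% of all genes that did so. Of all 11332 genes, 3033 fell and 3904 rose in wild types under median scaling, and 3333 fell and 4078 rose under 75th percentile scaling. In mutants 4487 fell and 2760 rose under median scaling, and 3251 fell and 4267 rose under 75th percentile scaling. The counts of members under those scalings are to be read beside these.

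The spindle checkpoint genes, which hold anaphase until chromosomes are attached, all fell. Bub1b had log2 levels of 11.45 and 11.53 in wild-type embryos, 11.43 and 11.42 in mutant embryos, 10.48 and 10.52 in wild-type yolk sacs and 10.22 and 10.52 in mutant yolk sacs. Every yolk sac lay below every embryo, by -0.99 (SE 0.12, adjusted p = 0.000175) in wild types and -1.06 (SE 0.12, 2.09-fold lower, adjusted p = 0.000127) in mutants. Mad2l1 also fell (-0.36 and -0.58). Its wild-type call was lost under either of the other scalings and its mutant call under 75th percentile scaling. In embryos Mad2l1 read 11.41 and 11.41 in wild types and 11.48 and 11.49 in mutants. Bub1 was dim and detected on 0 of the 4 mutant yolk sac arrays, where it was at least 1.24-fold lower than in mutant embryos (adjusted p = 0.0185). It was detected on 1 of the 4 wild-type yolk sac arrays, and its wild-type difference was -0.55 (SE 0.12, adjusted p = 0.00417).

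Among the genes of mitotic entry, Cdk1, the kinase that drives entry, had log2 levels of 11.62 and 11.65 in wild-type embryos, 11.58 and 11.95 in mutant embryos, 11.87 and 11.83 in wild-type yolk sacs and 12.01 and 11.85 in mutant yolk sacs. The tissues overlapped in mutants and the difference did not pass, at 0.21 (SE 0.13, adjusted p = 0.186) in wild types and 0.17 (SE 0.13, adjusted p = 0.286) in mutants. Cdk1 did rise under either of the other scalings in wild types and under 75th percentile scaling in mutants. Cdc25c, a phosphatase that activates Cdk1, read 8.89 and 8.87 in wild-type embryos, 8.74 and 8.69 in mutant embryos, 8.03 and 8.06 in wild-type yolk sacs and 8.17 and 8.25 in mutant yolk sacs. It fell in both genotypes, with differences of -0.84 (SE 0.09, adjusted p = 8.49e-05) and -0.50 (SE 0.09, adjusted p = 0.00133). Plk1, the polo kinase, fell too (-0.70 and -0.41). The wild-type call of Plk1 was lost under median scaling and its mutant call under 75th percentile scaling. Ccna2, cyclin A, showed no call, at -0.03 (adjusted p = 0.842) and 0.11 (adjusted p = 0.424). Ccnb2, a B-type cyclin, was dim, with log2 levels of 4.94 and 4.99 in wild-type embryos, 5.28 and 5.19 in mutant embryos, 5.17 and 5.59 in wild-type yolk sacs and 5.61 and 5.65 in mutant yolk sacs. No wild-type embryo array (0 of 4) detected it, and its mean wild-type yolk sac level was at least 1.16-fold higher (adjusted p = 0.031). It rose by 0.40 (SE 0.14, adjusted p = 0.0356) in mutants. Before normalization its signal was 18.2 and 19.5 in wild-type embryos and 19.15 and 36.3 in wild-type yolk sacs. In mutants it was 27.1 and 26.75 in embryos and lower, at 20.75 and 23.1, in yolk sacs. Its calls in both genotypes were lost under either of the other scalings.

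Calls within 1 complex were mixed. Of the chromosomal passenger members, Aurkb, the kinase, fell (-0.70 and -0.71), while Birc5, survivin, gave 0.14 (adjusted p = 0.246) and 0.25 (adjusted p = 0.067). The wild-type call of Aurkb was lost under median scaling. Birc5 rose in wild types under either of the other scalings, and in mutants under 4 other settings, 75th percentile scaling among them. Of the genes of anaphase, Cdc20 fell by 0.28 (SE 0.10, adjusted p = 0.0381) in wild types and gave -0.21 (adjusted p = 0.103) in mutants. The wild-type call of Cdc20 was lost under either of the other scalings, and under 75th percentile scaling Cdc20 was called higher in mutants. Ube2c had log2 levels of 8.54 and 8.53 in wild-type embryos, 8.42 and 8.60 in mutant embryos, 8.66 and 8.54 in wild-type yolk sacs and 8.88 and 8.86 in mutant yolk sacs. By these levels the mutant yolk sacs were the highest of the 8 samples. Ube2c rose by 0.36 (SE 0.10, adjusted p = 0.0131) against mutant embryos, with 0.06 (adjusted p = 0.599) in wild types. Before normalization its signal was 330.65 and 363.35 in mutant yolk sacs and 338.1 and 418.4 in mutant embryos, and the mutant call was lost under median scaling.

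Of the genes that build chromosomes and the spindle, Top2a, topoisomerase II, fell (-0.83 and -0.56), and so did Cenpa, the centromeric histone (-0.58 and -0.29). The Cenpa calls in both genotypes were lost under median scaling. Under 75th percentile scaling the mutant calls of Top2a and Cenpa were lost, and the mutant Cenpa difference was 0.20. Tpx2, which nucleates spindle microtubules, read 8.51 and 8.49 in wild-type embryos, 8.65 and 8.66 in mutant embryos, 7.92 and 8.02 in wild-type yolk sacs and 7.78 and 7.88 in mutant yolk sacs. Its tissue gap was wider than its spread in both genotypes, at -0.53 (SE 0.09, adjusted p = 0.00122) and -0.83 (SE 0.09, adjusted p = 0.000124). Nusap1, a spindle protein, fell (-0.65 and -0.80), whereas Kif11 gave -0.16 (adjusted p = 0.156) and -0.22 (adjusted p = 0.0688). The wild-type call of Tpx2 was lost under median scaling, and that of Nusap1 under either of the other scalings. Aurka, a spindle pole kinase, fell by 0.39 (adjusted p = 0.0077) in wild types and gave -0.09 (adjusted p = 0.425) in mutants. Its wild-type call was lost under either of the other scalings, and under 75th percentile scaling it was called higher in mutants.

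The D-type cyclins held both the largest tissue differences among the members and one in the opposite direction. Ccnd2, cyclin D2, had log2 levels of 12.51 and 12.38 in wild-type embryos, 12.49 and 12.40 in mutant embryos, 8.82 and 8.70 in wild-type yolk sacs and 9.26 and 9.34 in mutant yolk sacs. It was 12.9-fold lower in wild-type yolk sacs (log2 -3.69, SE 0.10, adjusted p = 2.42e-07) and 8.87-fold lower in mutant ones (log2 -3.15, SE 0.10, adjusted p = 5.22e-07). Ccnd1, cyclin D1, read 12.46 and 12.46 in wild-type embryos, 12.33 and 12.03 in mutant embryos, 9.91 and 9.81 in wild-type yolk sacs and 10.25 and 10.29 in mutant yolk sacs. It was 6.08-fold lower (log2 -2.60, SE 0.12, adjusted p = 1.79e-06) and 3.77-fold lower (log2 -1.91, SE 0.12, adjusted p = 8.29e-06). Ccnd3, cyclin D3, went the other way. Its log2 levels were 11.70 and 11.79 in wild-type embryos, 11.63 and 11.51 in mutant embryos, 12.15 and 12.11 in wild-type yolk sacs and 12.14 and 12.40 in mutant yolk sacs, so every yolk sac lay above every embryo. The rise was 0.39 (SE 0.11, adjusted p = 0.017) in wild types and 0.70 (SE 0.11, 1.63-fold, adjusted p = 0.00102) in mutants, and all 3 kept probes of Ccnd3 were higher in yolk sac, by 0.11 to 0.66 and by 0.66 to 0.80.

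**Figure D2:**
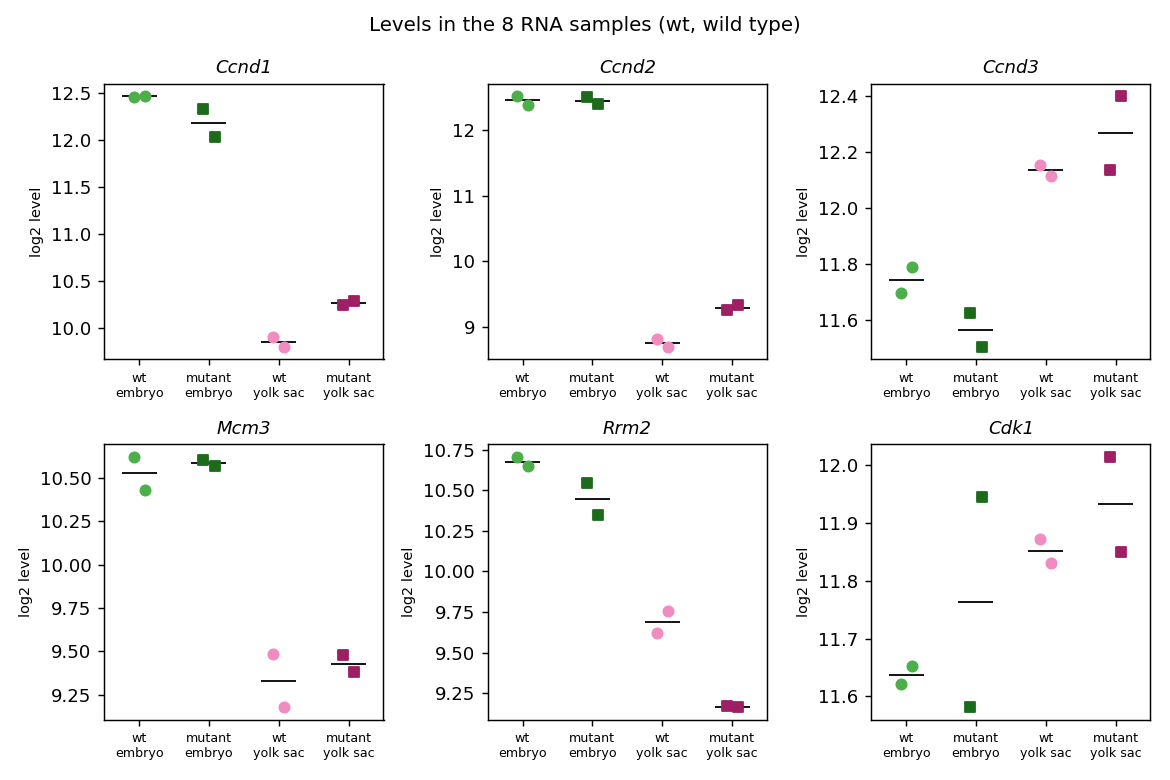
Log2 levels (background corrected and quantile normalized) of the 3 D-type cyclins, 2 S phase genes and Cdk1 in the 8 RNA samples, 2 points per group with the mean as a line and a separate vertical axis for each gene that does not start at 0. Ccnd1, Ccnd2, Mcm3 and Rrm2 are lower in all yolk sacs than in all embryos, Ccnd3 is higher in all yolk sacs, and Cdk1 overlaps between the tissues in mutants.

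**Figure D3:**
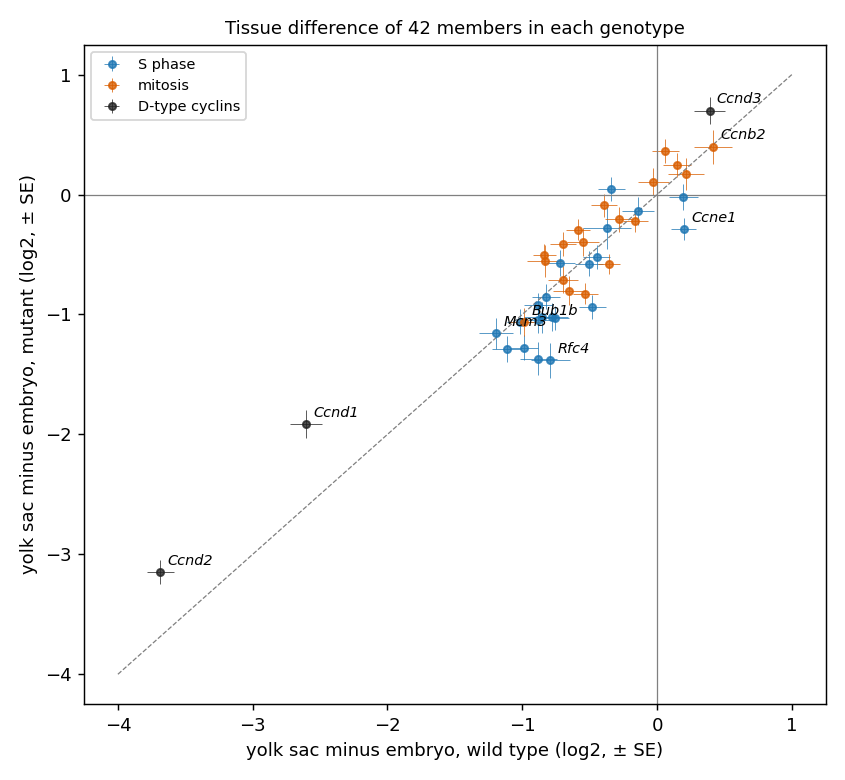
Yolk sac minus embryo log2 difference of the 42 tested members in wild types (horizontal) and in mutants (vertical), with SE bars and a dashed line of equality. Ccnd2 and Ccnd1 lie far to the lower left (-3.69 and -3.15, -2.60 and -1.91), Ccnd3 and Ccnb2 lie above 0 on both axes, and Ccne1 is above 0 in wild types and below 0 in mutants.

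The tissue calls of these members depended on the sample and scaling used as follows. Leaving out each sample in turn, 28 of the 33 wild-type calls and 27 of the 32 mutant calls kept their call each time. In wild types Aurka, Ccnb2, Ccnd3, Cdc20 and Tyms lost it without wild-type embryo 1, Ccnb2, Cdc20 and Tyms without wild-type embryo 2, Ccnd3 and Tyms without wild-type yolk sac 1, and Ccnb2 and Cdc20 without wild-type yolk sac 2. In mutants Bub1, Ccnb2, Ccne1, Cenpa and Ube2c lost it without mutant embryo 1, Bub1, Ccnb2, Ccne1 and Cenpa without the library labelled mutant embryo 2, Ccnb2, Ccne1 and Cenpa without mutant yolk sac 1, and Bub1 and Ccnb2 without mutant yolk sac 2. Under median scaling the wild-type split was 17 lower and 4 higher, and under 75th percentile scaling it was 23 lower and 6 higher, or 21 lower and 8 higher in mutants. Over all 15 settings run, 16 wild-type calls (11 of S phase, 3 of mitosis, Ccnd1 and Ccnd2) and 21 mutant calls (13, 5 and all 3 D-type cyclins) were kept with their direction. Those kept in wild types include Mcm3, Mcm4, Mcm5, Mcm7, Pcna, Pold1, Rfc3, Rrm1, Rrm2, Cdc6 and Gins1 of S phase and Bub1b, Cdc25c and Top2a of mitosis. The conceptus as a block (replicate block) left 32 calls in wild types, with Cdc20 lost, and 32 in mutants.

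Markers of other cell types also differed between the tissues, and their part in the differences above was not tested. All 5 cardiac muscle genes and all 6 neural progenitor genes tested were lower in yolk sac in both genotypes. Summed signals there were 50.45 to 103 for the cardiac genes and 42.25 to 72.85 for the 7 neural progenitor genes on the array. All 12 visceral endoderm genes rose in wild-type yolk sacs and 10 of 12 in mutant ones, and of 7 primitive erythroid genes 4 and 6 rose. Both tissues gave erythroid signal, with sums over the 8 such genes on the array of 37153 to 75003 in embryos and 71764 to 99685 in yolk sacs. The visceral endoderm sum reached 21035 in wild-type embryo 2 against 528.8 in wild-type embryo 1.

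Other genes of replication and mitosis, from lists that leave out the members, were also mostly lower in yolk sac where they were called. Of all genes 36.2% fell in wild types and 36.5% in mutants. Of 46 further replication genes 30 fell and 1 rose in wild types (median -0.55), and 29 fell and 1 rose in mutants. The largest falls were Clspn (-1.14), Cdc7 (-1.13) and Gins3 (-1.12) in wild types and Timeless (-1.43), Pold3 (-1.30) and Atad2 (-1.22) in mutants, and Orc4 was the 1 gene that rose, by 0.33 and 0.54. Of 57 further mitosis genes 31 fell and 3 rose in wild types (median -0.40), and 32 fell and 2 rose in mutants. The condensin subunit Ncapd2 fell most (-1.44 and -1.85), followed by Melk and Ckap2 in wild types and Cenpk and Fzr1 in mutants. Mybl2, which encodes the B-Myb named above, rose by 0.86 and 0.68, with Cit and Spc25 also higher in wild types and Pttg1 in mutants.

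Of 25 regulators of the cycle, 13 fell (52%) and 4 rose (16%) in wild types, where 36.2% and 33.2% of all genes did so. In mutants 10 fell (40%) and 7 rose (28%), near the 36.5% and 32.7% of all genes. E2f5, a repressive E2F, fell (-1.79 and -2.08), as did Ccng2 (-1.60 and -1.34) and Rb1, the retinoblastoma gene (-1.33 in each). Cdkn2a, a locus of inhibitors of the D-type cyclin kinases and of Mdm2, was detected on 0 of 4 arrays of wild-type embryos, and the yolk sacs of that genotype were at least 6.82-fold higher (adjusted p = 1.66e-05). Its mutant rise was 3.13 (SE 0.24, adjusted p = 2.08e-05). Cdkn2c rose by 1.23 and 1.30, and Cdkn2b, also dim in embryos, was at least 1.32-fold higher in wild types. Of the CDK inhibitors of the other family, Cdkn1a rose by 0.58 (adjusted p = 0.0024) and 1.14 (adjusted p = 7.61e-05), Cdkn1b fell by 0.53 (adjusted p = 0.00991) in wild types and gave 0.06 in mutants, and Cdkn1c gave 0.07 in wild types and rose by 0.42 (adjusted p = 0.0412) in mutants.

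Within the classes, the tissue difference was set beside the motifs of the sequences shown above, as a description. The 9 tested S phase genes with TTCCCGC had a median wild-type difference of -0.86 (-1.20 to -0.14), and the 8 without it -0.63 (-1.01 to 0.20). The 10 tested mitosis genes with TTTGAA had a median of -0.34 (-0.99 to 0.41), and the 4 without it -0.45 (-0.65 to 0.14). The ranges overlapped in both classes. Rrm1 and Cdc6, with TTCCCGC, had wild-type differences of -0.83 and -0.88, and Mcm6, with TTGGCGC at 109 and 46 bases before the start, -0.78.

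None of the members passed the test of mutant against wild type in either tissue. In yolk sac 0 of 42 were called by limma (1.27% of all genes were), and 12 had an unadjusted p under 0.05, against 20.9% of all genes. The lowest adjusted p was 0.0539. The number of genes called in yolk sac depended on the spread shared with the embryos: it was 144 of 11332 with all 8 samples and 0 with the 4 yolk sacs alone, where 1673 had an unadjusted p under 0.05. Both mutant samples lay above both wild types in 10 members and below them in 13, where 23.8% and 24.1% of all genes did so. The median log2 difference was -0.10 in S phase genes, 0.08 in mitosis genes and 0.41 in the D-type cyclins, with 0.00 over all genes.

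The signs of the S phase and mitosis medians depended on the scaling. They were -0.33 in S phase and -0.14 in mitosis genes under median scaling, which moved the median of all genes to -0.23. They were 0.06 and 0.27 in the authors' processed values, where all genes moved to 0.10, and 0.03 and 0.20 with 75th percentile scaling. Calls appeared under some settings. Median scaling called Ccne1, Rfc4 and Rrm2 lower, 75th percentile scaling called Ccnd2, Cenpa and Tyms higher, 3 other settings called Ccnd2 higher and Rrm2 lower, and 1 called Ccnd2 alone. Over all genes the split of calls was 65 higher and 79 lower, and 25 higher and 580 lower under median scaling.

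The S phase genes furthest from 0 in yolk sac were Rfc4 and Rrm2, both below. Rrm2 had log2 levels of 9.62 and 9.76 in wild-type and 9.17 and 9.16 in mutant yolk sacs, a difference of -0.52 (SE 0.11, adjusted p = 0.0601). The groups did not overlap, but another probe of Rrm2 of similar brightness gave -0.03. Rfc4 differed by -0.57 (SE 0.15, adjusted p = 0.0957), and its other kept probe gave -0.30. Without wild-type yolk sac 2 the Rfc4 difference was -0.34, and over the samples left out in turn it ran from -0.79 to -0.34. Cdt1 differed by -0.37 (adjusted p = 0.102), Ccne1 by -0.36 (adjusted p = 0.0955), Mcm7 by -0.33 and Rrm1 by -0.26, while second probes of Mcm7 and Rrm1 gave 0.45 and 0.23. On the other side, Tyms read 10.93 and 10.96 in wild-type and 11.34 and 11.23 in mutant yolk sacs, a difference of 0.34 (SE 0.10, adjusted p = 0.120), with -0.46 to 0.03 on its other 4 probes. Ccne2 read 8.61 and 8.24 in wild types and 8.93 and 8.47 in mutants, which overlap, with a difference of 0.28 (SE 0.18, adjusted p = 0.424).

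Of the mitosis genes, 12 of 18 lay above 0 and 6 below, where 50.4% of all genes lay above. Cenpa read 12.64 and 12.58 in wild-type and 12.83 and 12.94 in mutant yolk sacs, a difference of 0.27 (SE 0.09, adjusted p = 0.143), and its second probe gave -0.39. Ube2c, with the levels given above, differed by 0.27 (SE 0.10, adjusted p = 0.185) and Aurka by 0.25 (adjusted p = 0.196). The lowest were Nusap1, with 9.43 and 9.74 in wild types and 9.30 and 9.37 in mutants (-0.25, SE 0.12, adjusted p = 0.280), and Mad2l1, with 11.09 and 11.03 in wild types and 10.91 and 10.90 in mutants (-0.15, SE 0.08, adjusted p = 0.349). Neither pair of groups overlapped, as was the case for 47.9% of all genes.

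By normalized level, Ccnd1 and Ccnd2 lay higher in both mutant yolk sacs than in both wild types without passing, while Ccnd3 overlapped. Before normalization the signals of both overlapped. Ccnd1 gave 934.25 and 1162.2 in wild-type and 925.3 and 1048.65 in mutant yolk sacs, and Ccnd2 gave 429.25 and 527 against 444.5 and 525.5. Ccnd2, with the levels given above, differed by 0.54 (SE 0.10, 1.45-fold, adjusted p = 0.0539), with 0.52 on a second bright probe and -0.04 on a dim one. Ccnd1 differed by 0.41 (SE 0.12, adjusted p = 0.117), with 0.38 and 0.19 on its other probes, and Ccnd3 by 0.13 (SE 0.11, adjusted p = 0.554). The Ccnd3 value was 0.0023 without mutant yolk sac 2 and -0.05 under median scaling. Without each yolk sac sample in turn the Ccnd2 difference ran from 0.48 to 0.59 and its adjusted p from 0.0747 to 0.195.

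In the other cycle lists, 0 of 46 replication genes, 0 of 57 mitosis genes and 0 of 25 regulators were called in yolk sac by limma (1.27% of all genes were). An unadjusted p under 0.05 was met by 7, 6 and 4 of them, against 20.9% of all genes. Cdkn1a read 8.57 and 8.36 in wild-type and 8.89 and 8.98 in mutant yolk sacs, a difference of 0.47 (SE 0.11, adjusted p = 0.0831), Cdkn1b differed by 0.23 (adjusted p = 0.388) and Cdkn1c by -0.11 (adjusted p = 0.742). The mutant yolk sac arrays were the dimmest, and of 8 endothelial genes 1 was called and all 8 were above 0 (median 0.38), while 7 primitive erythroid genes were all below 0 (median -0.37) with 0 called by limma and 0 at an unadjusted p under 0.05. Of 3 tested trophoblast and decidua genes 1 rose and all 3 were above 0 (median 1.03). The summed signal of the 6 such genes on the array, tested or not, was 525.8 in wild-type yolk sac 1 and 1953 to 2567 in the other yolk sacs. The part of these shifts in the values above was not tested.

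In embryos, by limma, 0 of 42 were called (2.13% of all genes were), 2 had an unadjusted p under 0.05 (12.5% of all genes), and the differences ran from -0.28 to 0.29 with a lowest adjusted p of 0.338. Both mutants lay above both wild types in 14 members and below in 13, against 25.2% and 26.7% of all genes. The medians were 0.06 in S phase genes, -0.05 in mitosis genes and -0.18 in the D-type cyclins. The mitosis median was 0.06 under median scaling, 0.09 in the authors' processed values and 0.03 with 75th percentile scaling, so its sign was not settled.

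Cdc6 had the highest difference, with log2 levels of 9.37 and 9.21 in wild-type and 9.54 and 9.63 in mutant embryos (0.29, SE 0.11, adjusted p = 0.338). Rfc3 read 8.07 and 7.97 in wild types and 8.32 and 8.19 in mutants (0.23, SE 0.13, adjusted p = 0.562). Neither overlapped between genotypes. The ribonucleotide reductase subunits lay lower: Rrm1 read 11.20 and 11.11 in wild types and 11.01 and 10.84 in mutants (-0.23, SE 0.11, adjusted p = 0.431), and Rrm2 10.70 and 10.65 in wild types and 10.55 and 10.34 in mutants (-0.23, SE 0.11, adjusted p = 0.437). Both are below in yolk sac as well by the probes used. Among mitosis genes Ccnb2, detected on 0 of 4 wild-type and 3 of 4 mutant embryo arrays, lay at least 1.05-fold higher in mutants (adjusted p = 0.510), and Tpx2 differed by 0.15 (adjusted p = 0.581). Cdc25c differed by -0.17 (adjusted p = 0.510) and Plk1, with 11.55 and 11.62 in wild types and 11.49 and 11.41 in mutants, by -0.13 (adjusted p = 0.672). Ccnd1 differed by -0.28 (SE 0.12, adjusted p = 0.385), Ccnd3 by -0.18 and Ccnd2 by -0.00.

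Genes of embryonic cell types did differ between the same embryos, with 7 of 8 neuron genes and 3 of 6 neural progenitor genes lower and 3 of 4 somite and tailbud genes higher in mutants. Of the 46 further replication, 57 further mitosis and 25 regulator genes, 0 were called by limma in embryos, where 2.13% of all genes were. An unadjusted p under 0.05 was met by 3, 1 and 7 of them, against 12.5% of all genes. The inhibitors Cdkn1a, Cdkn1b and Cdkn1c differed by -0.08, -0.36 and -0.45 (adjusted p = 0.852, 0.331 and 0.267). Leaving out mutant embryo 2 as labelled, 0 members and 51 of all genes were called. With only the 2 embryos that the series design names (wild type 2, mutant 1) 0 members and 24 of all genes were called, with the spread taken from other groups, so neither count tells whether the members differ.

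**Figure D4:**
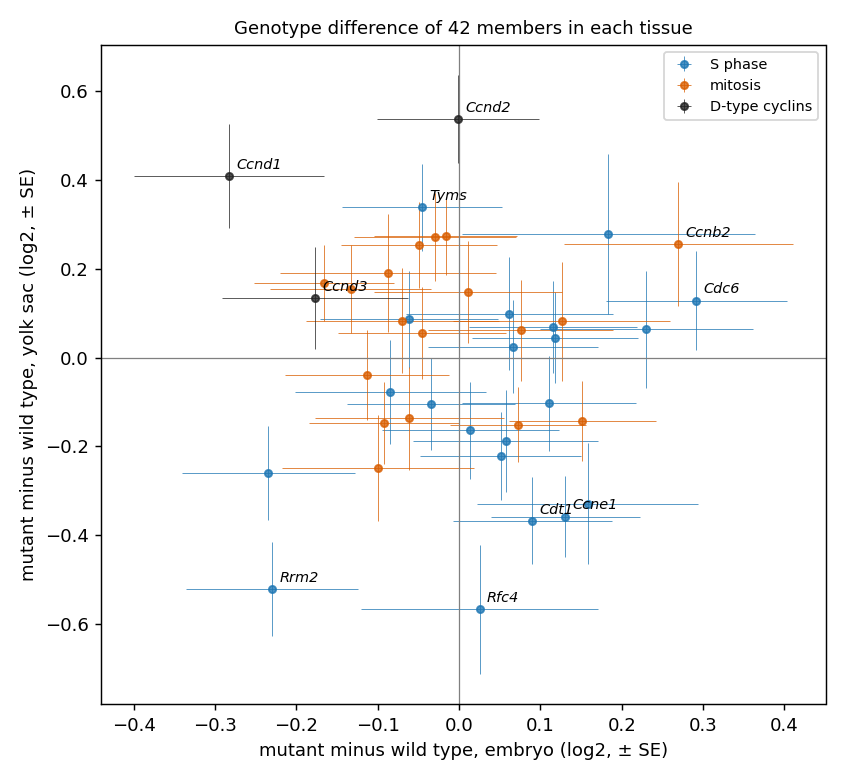
Mutant minus wild-type log2 difference of the 42 tested members in embryo (horizontal) and yolk sac (vertical), with SE bars. The embryo values stay between -0.28 and 0.29, and the yolk sac values run from Rfc4 at -0.57 to Ccnd2 at 0.54; no member passed the test on either axis.

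The difference between the genotype effects of the tissues was tested directly, and 0 of 42 members passed (limma; 0.335% of all genes did), with 8 at an unadjusted p under 0.05 against 18.7% of all genes. The same contrast is the difference between the tissue differences of the genotypes. Ccnd1 came nearest, at 0.69 (SE 0.17, adjusted p = 0.0975), followed by Ccnd2 at 0.54 (SE 0.14, adjusted p = 0.112), so the smaller tissue gap of both cyclins in mutants was not shown to differ from that in wild types. In S phase Rfc4 and Ccne1 lay lowest (-0.59, adjusted p = 0.191, and -0.49, adjusted p = 0.115) and Tyms and Gins1 highest (0.38, adjusted p = 0.205, and 0.15, adjusted p = 0.654). In mitosis Tpx2 and Mad2l1 lay lowest (-0.29, adjusted p = 0.271, and -0.22, adjusted p = 0.358) and Cdc25c and Aurka highest (0.33, adjusted p = 0.209, and 0.30, adjusted p = 0.287). Gins1 read 10.10 and 10.10 in wild-type embryos, 10.10 and 9.98 in mutant embryos, 9.51 and 9.26 in wild-type yolk sacs and 9.49 and 9.45 in mutant yolk sacs, and Aurka 11.13 and 11.07, 11.03 and 11.08, 10.79 and 10.63, and 10.98 and 10.94 in the same order. For Gins1 the genotypes overlapped in both tissues. The medians were -0.16 for S phase, 0.09 for mitosis and 0.54 for the D-type cyclins, against 0.01 over all genes, and under median scaling -0.55 and -0.24 for the first 2, with all genes at -0.29.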

How the data were processed

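The 8 RNA samples were read on 2 arrays each, 16 Illumina MouseWG-6 v2 bead arrays in all. The deposited table holds probe intensity on a linear scale with background already subtracted, per the file headers and values, and a score per probe, which as deposited did not follow the intensity beside it. The scores were matched to the intensities by rank within an array and read as 1 minus a detection p, which the sources do not settle. The authors' processed values are log2 values centred by probe within each tissue, as the values show, so they give no tissue difference. What their scaling per array was based on is not given in the sources used here.

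Probes detected (p under 0.05) on at least 4 of 16 arrays were kept. Signals were normalized with neqc (offset 16) in limma 3.58.1 under R 4.3.3, repeat arrays were averaged, and the brightest kept probe stood for a gene. Of 45281 probes 34885 carried 1 symbol, 18 several and 10378 none. One linear model over the 8 samples (lmFit and eBayes, 4 residual and 3.35 prior degrees of freedom) gave 5 comparisons: genotype in yolk sac, genotype in embryo, their difference, and tissue in each genotype. Two-sided p-values were adjusted over 11332 genes (Benjamini-Hochberg) and called under 0.05. The fit was tested on simulated data. An at-least-fold sets the group with signal against, per array, the lowest detected signal or the probe's own value where that is higher. Precision is limited by how few arrays and samples there are.

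By the labels, an embryo and a yolk sac of the same genotype and number came from 1 conceptus. Their deviations from the group means correlated at 0.0421 in wild types and 0.220 in mutants over 11332 genes. Between genotypes only the number is shared (0.171 in yolk sac, 0.192 in embryo).

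Every member could be named. Values in every sample of a comparison are given for its 2 highest and 2 lowest genes of the S phase and mitosis classes. Of genes that are no members the 3 largest changes past the threshold in each direction and list were named, with Cdkn1a, Cdkn1b, Cdkn1c and Bcas3. The members, their roles and the other lists were chosen with earlier results of these data known. Alternatives covered scaling, background correction, the detection filter, the probe of a gene, repeat arrays, the samples in the fit, a replicate block and each sample left out.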

Additional observations from a re-analysis of the deposited data

How the results depend on the processing

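The precision of these values is set by 2 samples a group, and the dim probes of Bub1 and Ccnb2 allow only bounds in some groups. The authors' processed values could not be used between tissues, and with the embryos named in the series design the yolk sac comparison called 0 of all genes, as with the yolk sacs alone, since 1 embryo a group adds no spread. The cause of the changes below was not tested, except that fewer samples enter the fits that leave some out.

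For genotype in yolk sac, median scaling gave 3 members lower, medians of -0.33 (S phase) and -0.14 (mitosis), and Ccnd3 at -0.051, Ccne2 at -0.039 and Ube2c at -0.032. The authors' values gave medians of 0.0575 and 0.27 and Mad2l1 at 0.0425. Scaling to the 75th percentile, with a floor of 16 set afterwards, gave 3 higher, 0.032 and 0.20, and Mad2l1 at 0.0146. Normexp on the signals alone, an offset of 50 and probes detected on all 16 arrays each gave 1 higher and 1 lower, and no filter gave 1 higher. The mean of all kept probes gave -0.0164 for S phase, -0.060 for Cenpa and -0.046 for Tyms. In embryo, medians of S phase and mitosis were 0.17 and 0.064 under median scaling, 0.20 and 0.09 in the authors' values (Plk1 0.0225) and 0.14 and 0.027 under 75th percentile scaling, and the mitosis median was -0.0097 with the first arrays only. Ccnd2 in embryo was 0.11, 0.14 and 0.074 under those scalings, 0.10 as the mean of probes, 0.0193 with the first arrays and 0.11 with the embryos named in the design. For the difference between tissues in the genotype effect, median scaling gave -0.55 and -0.24, Aurka at -0.032, Ccnd3 at -0.0028, Cdc25c at -0.084 and Gins1 at -0.22, and the mean of probes gave -0.063 for S phase and -0.0122 for Tyms.

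For tissue in wild types, median scaling gave 4 higher, 17 lower, medians of -0.45 and -0.19 and Cdc20 at 0.067, and 75th percentile scaling 6 higher, -0.45, -0.17 and Cdc20 at 0.0795. Mitosis medians were -0.37 with normexp, with an offset of 50 and with no filter, and -0.40 with the design's embryos, which gave 0 higher. Normexp, the offset, probes on all arrays and the samples of the comparison alone gave 1 higher each, and the first arrays an S phase median of -0.72. In mutants, 75th percentile scaling gave 8 higher, -0.53 and 0.066, Cenpa at 0.20 and Plk1 at 0.0142, median scaling gave 1 higher, and Tyms was -0.30 as the mean of probes (adjusted p = 0.0146) and -0.029 with the first arrays.

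Leaving out each sample in turn gave 28 to 31 lower and 0 to 1 higher in wild types, with medians of -0.79 to -0.72 (S phase) and -0.48 to -0.40 (mitosis), and 26 to 28 lower and 1 to 3 higher in mutants, with -0.97 to -0.87 and -0.36 to -0.28. The genotype counts were 0 of the members, but these fits called few genes at all: 0 to 110 of all genes in yolk sac, 51 to 207 in embryo and 0 to 86 for their difference. They give the lone sample of a group the spread of the other groups, so a count of 0 says nothing of stability. The medians were -0.11 to -0.037 and 0.056 to 0.092 in yolk sac, 0.038 to 0.10 and -0.058 to -0.020 in embryo, and -0.22 to -0.083 and 0.024 to 0.13 for their difference. Ccnd2 in embryo ran from -0.067 to 0.065 and Tyms in mutants from -0.040 to 0.13. With the replicate block, 32 tissue calls were made in wild types (Cdc20 lost) and 32 in mutants, and 0 members by genotype, where 0 (yolk sac), 174 (embryo) and 0 (difference) of all genes were called. The number alone pairs samples across genotypes, and only 2 pairs exist.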
